A study of Mus musculus with 6 samples.

Results

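The genes of the mitochondrial respiratory chain and of ATP synthase were followed in 6 RNA-seq libraries of mouse brain tumours that model WNT medulloblastoma, a childhood cerebellar tumour driven by WNT signalling. Rows were taken by gene name: the Nduf genes of complex I (with Ndufa4 and Ndufa4l2, counted here in complex IV), Sdha to Sdhd of complex II, the Uqcr genes of complex III, the Cox5 to Cox8 genes of complex IV, the Atp5 genes of complex V, and the protein-coding mt genes of the mitochondrial DNA. Names alone gave 102 rows, and 95 of them had at least 50 counts in every library, of 34591 gene rows in all. Of these 95 genes, 82 are encoded in the nucleus and 13 in the mitochondrial genome. The control group held 3 libraries of the tumour model. The other group held 3 libraries labelled sh2-Ift88, written shIft88 here: the same model with a short hairpin RNA against Ift88, a gene needed to build cilia. The sources used here give no age, strain or hairpin delivery and do not say whether each library came from its own animal, so p-values measure only the spread between these libraries, which may be technical.

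Respiratory complexes I, III and IV pass electrons from NADH to oxygen and pump protons out of the mitochondrial matrix, complex II feeds in electrons from succinate, and ATP synthase (complex V) lets the protons flow back to make ATP. All complexes but complex II mix subunits from the nuclear and the mitochondrial genome. The mitochondrial genes are transcribed as long polycistronic RNAs, whereas each nuclear subunit has its own promoter, which is often bound by NRF1, ETS-family factors or YY1.

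The libraries held 26802618 to 33772559 gene counts. The hairpin's target did not differ between the groups beyond its error: Ift88 stood at 13.8, 19.7 and 13.7 CPM (gene counts scaled to library size) in control and at 14.7, 16.0 and 14.4 CPM in the shIft88 libraries, a log2 difference of -0.06 (SE 0.27; edgeR adjusted p = 0.9995). All levels here are CPM scaled by edgeR's TMM factors. Those factors ran from 1.05 to 1.24 in 5 libraries and were 0.598 in shIft88 3, where 4 rows taken here as satellite-like (Gm10800, Gm16869, Gm10718 and Gm10722) took 40.5% of the gene counts against 0.0269 to 8.88% in the others. Reads on many olfactory receptor genes (387 to 564 rows detected) were found in control 2, shIft88 2 and shIft88 3, against 24 to 38 rows in the other libraries. The 6 WNT tumour markers listed, among them Axin2, Lef1 and Wif1, summed to 2088 to 3979 CPM, of which Wif1 gave 1346 to 3054 CPM. None was at 0 in any library, but 2 were low: Dkk1 at 0.0303 to 2.27 CPM and Lgr5 at 0.212 to 6.35 CPM. Markers of other brain cells varied within both groups. Neuronal markers summed to 59.6, 176 and 514 CPM in control libraries and to 226, 169 and 20.7 CPM in the shIft88 libraries. Of the 12, Gabra6 was at 0 in control 1 and a different marker, Slc17a6, was at 0 in control 3. Ependymal and choroid plexus markers summed to 1422 CPM in shIft88 1, of which Ttr gave 1389 CPM, and to at most 3.93 CPM elsewhere. Foxj1, of the same list, was at 2.89 CPM in shIft88 1 and at 0.606 to 2.05 CPM elsewhere. The part of these cells in the results was not tested.

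No respiratory chain or ATP synthase gene passed the test between the groups. Of the 95 genes, 0 were higher and 0 were lower in shIft88 at an edgeR adjusted p under 0.05, where the same rule called 0% of the 16768 genes tested in either direction. DESeq2 also called 0 of the 95, against 0.268% of all genes higher and 0.0775% lower, and limma-voom called 0. Fold changes sat below 0 for 63 genes and above 0 for 32, with a median of -0.07 on the log2 scale. Over all genes tested, 51.3% were below 0, 48.7% above 0, and the median was -0.01. The sign of the median rested on single libraries: it became 0.04 without control 3 and 0.05 without shIft88 2. At an unadjusted p under 0.05 the test gave 1 of the 95, Ndufa6, which was higher. Over all genes, 1.97% were higher and 1.26% lower by that rule. The plot of fold changes by complex shows the spread.

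**Figure D1:**
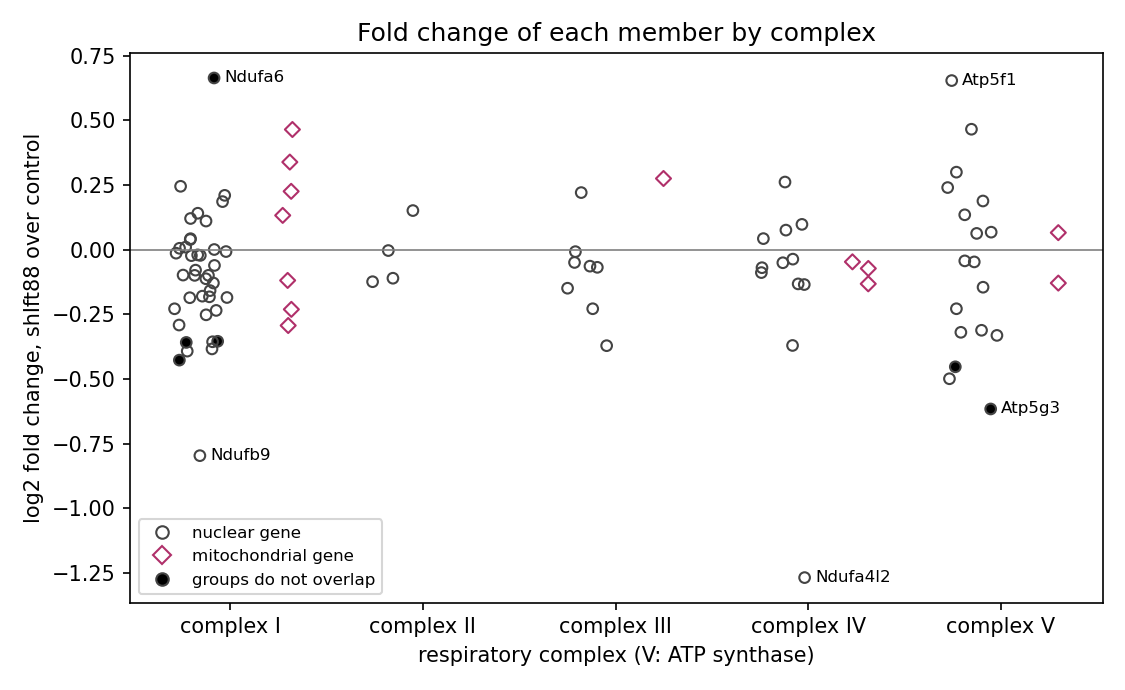
Log2 fold change of each of the 95 genes, shIft88 over control, by respiratory complex, from the edgeR fit. Circles are nuclear genes, diamonds mitochondrial genes, and filled symbols mark the 6 genes whose groups did not overlap. Most points lie between -0.5 and 0.5.

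The 3 libraries of each group still bounded the size of a difference for most genes. The 95% interval of the fold change excluded a doubling for 86 genes and a halving for 80, and it excluded both for 72. The median bounds were 59.2% and 151% of the control level. Groups did not overlap for 6 genes: Ndufa6 was higher in every shIft88 library, and Ndufs3, Ndufa11, Ndufv3, Atp5c1 and Atp5g3 were lower. That is 1.05% of the genes higher, where 4.7% of all genes tested were separated in that direction, and 5.26% lower, where 3.69% were. These shares depended on the limit of 50 counts. A limit of 20 counts kept 97 rows, 3 of them separated higher and 5 lower (8.25%, against 8.39% of all genes). The rows it added, Cox6b2 and Atp5l-ps1, were both higher in every shIft88 library. In bulk tissue, fewer cells of a type and less RNA per cell cannot be told apart.

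Libraries of the same group differed by more than the group means did. Summed over the 82 nuclear genes, levels were 7790.1, 6582 and 9286 CPM in control libraries and 8397, 5861 and 7422 CPM in the shIft88 libraries. Both the highest sum (control 3) and the second lowest (control 2) were controls. Control 3 held the highest value of 45 of the 95 genes and shIft88 2 the lowest value of 40. The highest library exceeded the lowest by a median of 1.77-fold over the genes, and for 66 genes by less than 2-fold. Atp5k (subunit e of ATP synthase) varied least at 1.23-fold, followed by the catalytic complex II subunit Sdha and by Atp5e, subunit epsilon, both at 1.29-fold.

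**Figure D2:**
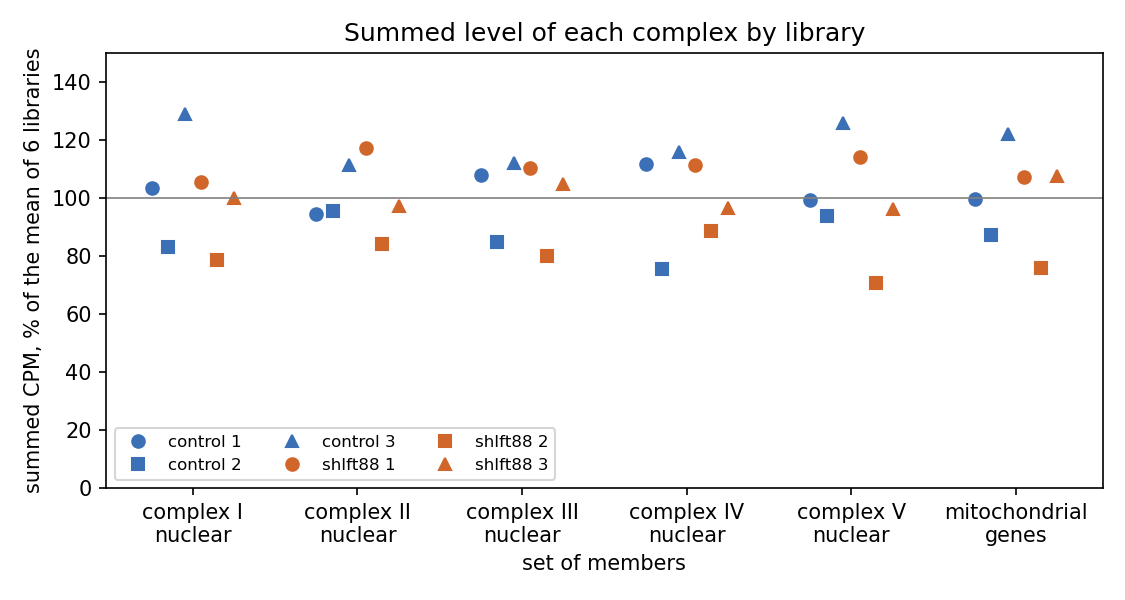
Summed CPM of each set of genes in each library, as a percentage of the mean of the 6 libraries. Circles, squares and triangles are libraries 1, 2 and 3 of a group, blue for control and orange for shIft88. Control and shIft88 points interleave in all 6 sets, and shIft88 2 is lowest in all but the complex IV set.

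Summed over genes, nuclear and mitochondrial counts kept a similar proportion in all libraries. Mitochondrial mRNAs made up 59.0, 59.8 and 59.6% of the counts of the 95 genes in control libraries and 58.9, 59.2 and 62.0% in the shIft88 libraries. The groups overlapped, and shIft88 3 was the highest. Of the mitochondrial mRNA counts, mt-Co1 alone gave 49.99 to 56.3%. With every gene weighted alike, the mitochondrial genes were lower relative to the nuclear ones in control 1. Mean log2 CPM of the mitochondrial genes was 7.75, 7.85 and 8.23 in control libraries and 8.13, 7.74 and 8.14 in shIft88. For the nuclear genes it was 5.93, 5.65 and 6.03 in control libraries and 5.96, 5.57 and 5.87 in shIft88. As a share of all gene counts, mitochondrial mRNAs were 1.20, 1.08 and 1.70% in control libraries and 1.26, 0.929 and 0.722% in shIft88. With the 4 satellite-like rows taken out of the total, shIft88 3 was at 1.21% and the others were 1.20, 1.18 and 1.70% against 1.26 and 0.990%.

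The 13 mitochondrial mRNAs had a wide range of levels and overlapping groups. Per kilobase of transcript, the complex IV catalytic subunit mt-Co1 led with a mean of 3881 CPM per kilobase, followed by mt-Co3 at 2373 and mt-Co2 at 1169.7. The lowest were the complex I subunits mt-Nd5 at 79.5 and mt-Nd4l at 30.6 CPM per kilobase. For comparison, the median nuclear gene of the set lay at 63.6 CPM per kilobase and the highest, Atp5b, at 464. Transcript lengths were found for 94 of the 95 genes. Neighbouring frames overlap on the mitochondrial DNA, mt-Atp8 with mt-Atp6 by 43 bases and mt-Nd4l with mt-Nd4 by 7, and the sources used here do not say how reads in an overlap were assigned.

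**Figure D3:**
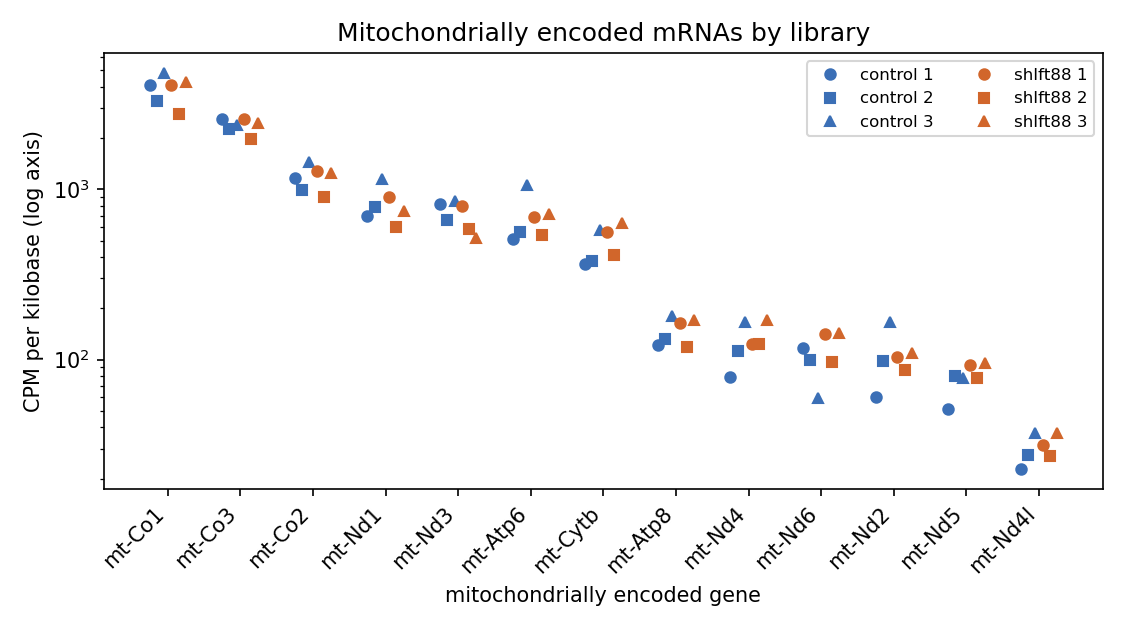
Level of each of the 13 mitochondrially encoded mRNAs in each library, in CPM per kilobase on a log axis, ordered by mean. Blue symbols are controls and orange symbols shIft88, with 1 symbol shape per replicate number. The order from mt-Co1 down to mt-Nd4l spans a far wider range than the libraries of any gene.

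The groups overlapped for all 13, and none passed the test. mt-Co1 was at 6312, 5055 and 7446 CPM in control libraries and 6338, 4255 and 6572 CPM in shIft88, a log2 fold change of -0.13 (SE 0.35). mt-Cytb, the mitochondrial subunit of complex III, was at 415, 436 and 663 CPM and 643, 469 and 722 CPM, a log2 fold change of 0.28 (SE 0.32). The groups overlapped for both. mt-Nd1, a subunit beside the quinone site of complex I, was at 666, 748 and 1103 CPM and 861, 575 and 709 CPM (-0.23, SE 0.33), and mt-Nd2, a proton-pumping subunit, at 62.9, 102 and 173 CPM and 107, 90.4 and 114 CPM (-0.12, SE 0.37). Control 3 was the highest library for both. mt-Atp6, the proton channel subunit of ATP synthase, was at 346, 381 and 721 CPM and 468, 366 and 489.6 CPM (-0.13, SE 0.36), again with control 3 highest. Of the 7 complex I subunits, 4 had fold changes above 0 and 3 below, from -0.29 for mt-Nd3 to 0.46 for mt-Nd6.

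mt-Nd6 is the only one of the 13 on the other strand of the mitochondrial DNA, where its frame overlaps that of mt-Nd5 by 14 bases. Its levels were 60.9, 51.9 and 30.8 CPM in control libraries and 73.4, 50.6 and 74.3 CPM in shIft88 (log2 fold change 0.46, SE 0.32, unadjusted p = 0.183). Control 3, the library with the highest sum of mitochondrial mRNA, had the lowest mt-Nd6. There mt-Nd6 made up 0.224% of the mitochondrial mRNA counts, against 0.531 to 0.614% in the other 5 libraries. Without strand-aware counting, reads of the opposite strand would add to such a gene, and the sources used here do not give the strand setting of the counting.

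Complex I had 40 nuclear genes, 28 with fold changes below 0 and 12 above, with a median of -0.10. Of the 7 core subunits, which form the electron path of the arm in the matrix, 6 were below 0, and of the 29 accessory subunits 19 were. The 4 assembly factors Ndufaf1 to Ndufaf4, which build the complex but do not stay in it, ran from -0.25 to 0.00. None passed the test.

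Ndufa6, an accessory subunit of the LYR protein family, had the smallest p of the 95. It was at 74.9, 54.1 and 43.6 CPM in control libraries and 109.5, 76.0 and 88.0 CPM in shIft88. All shIft88 libraries were above all controls, shIft88 2 only narrowly above control 1. Ndufa6 lay farthest from its median in control 3, at 0.581-fold the level of the median library. Its 10 nearest expressed genes on chromosome 15 had a median of 0.618-fold there, and 2 of them were above their own medians. The part of this stretch in the difference was not tested. The log2 fold change was 0.66 (SE 0.28, unadjusted p = 0.048, edgeR adjusted p = 0.9995), with a 95% interval of 101 to 249.8% of the control level.

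Ndufs3, a core subunit of the peripheral arm, was at 59.4, 61.2 and 63.5 CPM in control libraries and 49.97, 35.9 and 51.0 CPM in shIft88 (log2 fold change -0.43, SE 0.23). The controls were tightly grouped and all lay above the shIft88 libraries. Ndufa11, an accessory subunit of the membrane arm, was at 38.1, 36.5 and 42.1 CPM and 35.2, 28.1 and 28.0 CPM (log2 fold change -0.35, SE 0.22). Ndufv3, an accessory subunit near the NADH site, was at 47.5, 36.0 and 37.0 CPM and 35.8, 30.1 and 28.0 CPM (log2 fold change -0.36, SE 0.23). Control and shIft88 libraries nearly met for both, at control 2 and shIft88 1.

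Ndufb9 had the lowest fold change of complex I, and 1 library set it. Its level was 588 CPM in control 3 and 101 to 184 CPM in the other 5 libraries, with 117, 101 and 588 CPM in control libraries and 184, 143 and 137 CPM in shIft88. The log2 fold change of -0.80 (SE 0.67) became 0.50 without control 3. Genes next to Ndufb9 on chromosome 15 shared the high value. Of the 10 nearest genes expressed at 5 CPM or more, 5 on each side in RefSeq gene order, 9 were above their own median in control 3 and 8 were at least 1 log2 unit above it. Their median in control 3 was 3.19-fold the level of the median library, and Ndufb9 itself was at 4.18-fold. In shIft88 1, all of these neighbours but Trmt12 were also above their own medians. Tmem65 was the farthest there at 1.10 log2 units, and Ndufb9 was at 0.39. Sqle, an enzyme of cholesterol synthesis in this stretch, was at 437 CPM in control 3 and at 74.3 to 239 CPM elsewhere. For the other 81 nuclear genes, in the library where each lay farthest from its median, the neighbours' median ran only from 0.606-fold to 1.74-fold. The neighbours of Ndufb9 and those of Ndufa6 were singled out for description after their values were seen.

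**Figure D4:**
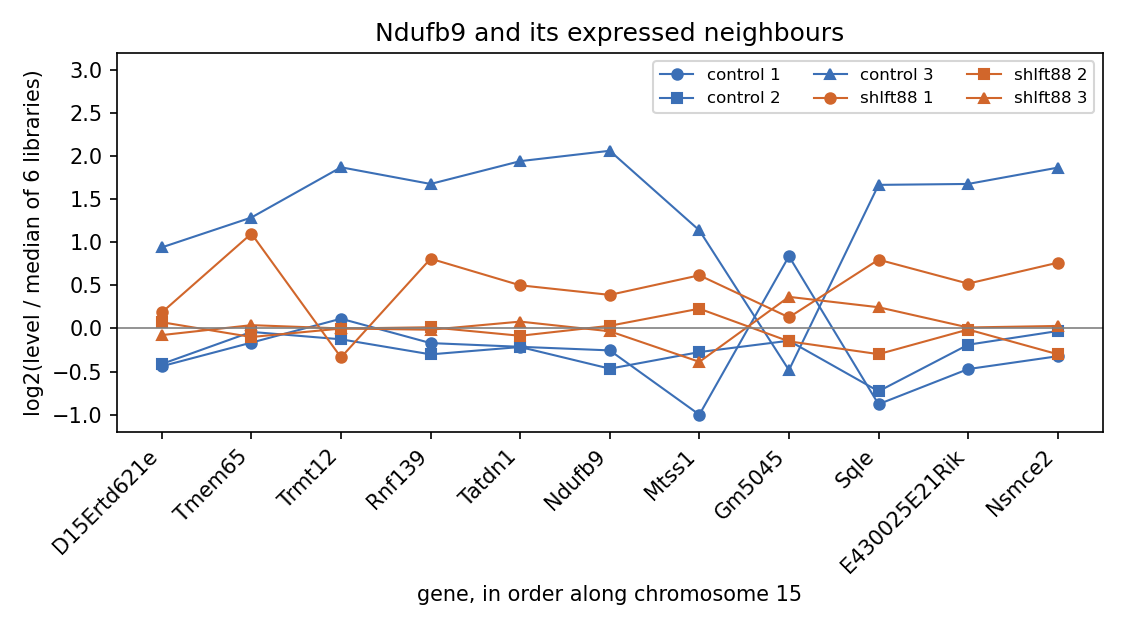
Log2 of each gene's level over its median of the 6 libraries, for Ndufb9 and the 5 expressed genes on each side, in their order along chromosome 15. Blue lines are controls, orange lines shIft88. The control 3 line lies above 0 for Ndufb9 and 9 of its 10 neighbours, with Gm5045 the exception.

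No gene of complexes II and III passed the test or separated the groups. Sdha, the flavin subunit of succinate dehydrogenase, was at 117, 138 and 151 CPM in control libraries and 136, 118 and 119 CPM in shIft88 (log2 fold change -0.12, SE 0.22). Sdhb, the iron-sulfur subunit, was at 136, 124 and 113 CPM and 183, 103 and 129 CPM (0.15, SE 0.27), and the membrane anchors Sdhc and Sdhd had log2 fold changes of -0.00 and -0.11. The groups overlapped for all 4 genes. In complex III, 7 of 8 nuclear genes had fold changes below 0, with a median of -0.07. Uqcrc1, a structural subunit facing the matrix, was at 122, 114 and 189.6 CPM in control libraries and 129, 89.3 and 111 CPM in shIft88 (-0.37, SE 0.29). Its groups overlapped, and control 3 was the highest library. Uqcrh, the hinge subunit, was the 1 nuclear gene of complex III above 0, at 252, 177 and 135 CPM and 241, 173 and 243 CPM (0.22, SE 0.31). Uqcrq, the ubiquinone-binding protein, had a log2 fold change of -0.23 (SE 0.25). For Uqcrh, control 3 was the lowest library, as it was for 7 of the 95 genes.

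Complex IV had 12 nuclear genes, 8 below 0 and 4 above. Cox5b, a zinc-binding subunit, was at 92.5, 59.9 and 103 CPM in control libraries and 66.3, 55.0 and 76.1 CPM in shIft88 (log2 fold change -0.37, SE 0.28). Cox6c was the highest of them per kilobase, at 459.6 CPM per kilobase, and was at 235, 185 and 387 CPM and 405, 276 and 182 CPM (0.10, SE 0.40). Both overlapped between the groups. The widely expressed forms Cox6a1, Cox7a2 and Cox8a had log2 fold changes of -0.04, 0.04 and 0.08, each with an SE above its size. Cox7a2l, which joins complexes III and IV into supercomplexes, was at 284, 131 and 150.2 CPM and 144, 164 and 208 CPM (-0.13, SE 0.35), with control 1 the highest. Several subunits have a second gene, often used in heart, skeletal muscle or testis, and these had few counts here. Cox6a2, Cox8b and Cox8c had at most 11 counts in any library, Cox7b2 at most 13, and Cox7a1 at most 55, so none of them reached 50 counts in every library. The sixth row left out of complex IV, Cox6b2, known from testis, had 126, 38 and 42 counts in control libraries and 192, 154 and 79 in shIft88. It made up 3.44, 1.43 and 0.871% of the counts of Cox6b1 and Cox6b2 in control libraries and 4.79, 5.57 and 4.53% in shIft88. These shares did not overlap, with an exact two-sided permutation p = 0.1, the smallest that 3 against 3 libraries can give (adjusted p = 0.367 over 11 shares). The seventh row left out, the pseudogene Atp5l-ps1, had 23 to 43 counts. Just inside the limit were Atp5s, with 74 counts in its lowest library, and Atp5l2, with 79.

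Ndufa4 and its paralog Ndufa4l2, a gene known to be induced by low oxygen, were apart in control 1. Ndufa4l2 was at 61.7, 6.34 and 8.45 CPM in control libraries and 4.36, 18.3 and 9.06 CPM in shIft88. Control 1 was by far the highest, at 6.72-fold the level of the median library, while the gene's 10 chromosomal neighbours had a median of 1.02-fold there. ShIft88 2 came next, 1.02 log2 units above the median library. The log2 fold change of -1.27 (SE 0.95), the lowest of the 95, became 0.51 without control 1. Ndufa4 itself was at 35.1, 68.0 and 96.2 CPM and 100.2, 61.5 and 77.2 CPM, lowest in control 1. There it was at 0.486-fold the level of the median library, and 8 of its 10 neighbours were also below their own medians, with a median of 0.606-fold. Ndufa4l2 made up 63.8% of the counts of the pair in control 1 and 4.17 to 23.0% in the other 5 libraries.

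In complex V, 10 of the 18 nuclear genes were below 0 and 8 above. Among those above were Atp5s (0.13) and Atp5sl (0.06), which were taken by name and are not counted as subunits. The catalytic F1 head had 4 of 5 subunits below 0. Atp5b, its catalytic beta subunit, was at 869.6, 723 and 1534 CPM in control libraries and 936, 511 and 766 CPM in shIft88 (log2 fold change -0.50, SE 0.40), overlapping, with control 3 the highest. Atp5c1, the gamma subunit that turns inside the head, was at 251, 226 and 256 CPM and 182, 135 and 219 CPM (-0.45, SE 0.26, unadjusted p = 0.125). The highest shIft88 library lay just under the lowest control. Atp5f1, a subunit of the outer stalk, was at 195, 223 and 96.9 CPM and 493, 155 and 162 CPM (0.65, SE 0.54). ShIft88 1 was high at 2.75-fold the level of the median library, and all 10 of its neighbours on chromosome 3 were above their own medians there, by a median of 1.74-fold. Without shIft88 1 the log2 fold change became -0.13. That library also held the high choroid plexus markers.

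Subunit c, which forms the rotating ring of ATP synthase, is made from 3 nuclear genes, Atp5g1, Atp5g2 and Atp5g3. Their coding sequences end in a stretch of 237 bases that encodes the same 78 residues and the stop, so that the mature protein does not tell which gene made it, while the bases do. The stretch is shown for each gene because the shares of Atp5g2 and Atp5g3 did not overlap between the groups. The sequences are from GENCODE M21 transcripts, with capitals at the 64 positions where the 3 genes are not all alike, 55 of them at the third base of a codon.
Atp5g1: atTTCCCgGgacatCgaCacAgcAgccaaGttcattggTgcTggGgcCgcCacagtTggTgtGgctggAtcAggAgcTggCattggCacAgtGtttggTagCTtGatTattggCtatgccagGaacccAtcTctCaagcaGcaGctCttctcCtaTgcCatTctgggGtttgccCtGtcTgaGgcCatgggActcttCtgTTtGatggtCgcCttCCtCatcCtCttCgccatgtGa
Atp5g2: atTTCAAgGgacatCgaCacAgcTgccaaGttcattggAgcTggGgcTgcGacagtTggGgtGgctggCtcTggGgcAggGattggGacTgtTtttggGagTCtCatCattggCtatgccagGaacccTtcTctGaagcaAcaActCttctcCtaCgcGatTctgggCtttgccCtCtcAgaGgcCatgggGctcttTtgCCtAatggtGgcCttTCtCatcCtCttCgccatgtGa
Atp5g3: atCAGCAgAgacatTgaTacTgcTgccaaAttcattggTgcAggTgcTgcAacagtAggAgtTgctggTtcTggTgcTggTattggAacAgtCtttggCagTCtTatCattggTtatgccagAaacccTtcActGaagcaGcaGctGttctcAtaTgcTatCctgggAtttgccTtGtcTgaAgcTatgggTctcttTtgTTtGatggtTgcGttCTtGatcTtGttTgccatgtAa
Over this stretch Atp5g1 and Atp5g2 were 84.8% identical, with a longest identical run of 21 bases, and Atp5g2 and Atp5g3 were 77.2% identical, with a longest run of 8 bases. Atp5g1 and Atp5g3 were 78.5% identical, with a longest run of 11 bases. Counts for the 3 genes are uncertain as far as shorter or mismatched alignments could be split between them.

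Atp5g3 gave more counts than Atp5g2 in every control and about as many in every shIft88 library. Atp5g3 made up 51.3, 58.6 and 52.3% of the counts of the 3 genes in control libraries and 41.3, 39.7 and 40.8% in shIft88. Atp5g2 made up 30.4, 25.8 and 20.1% in control libraries and 41.6, 39.6 and 38.7% in shIft88. Neither overlapped between the groups, and the shIft88 libraries lay within a narrow band. Atp5g1 overlapped, at 18.3, 15.6 and 27.6% against 17.1, 20.7 and 20.5%. The ratio of Atp5g3 to Atp5g2 counts was 1.69, 2.27 and 2.60 in control libraries and 0.992, 1.002 and 1.05 in shIft88. These values rest on 4674 to 15484 counts per library and do not depend on how libraries are scaled.

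**Figure D5:**
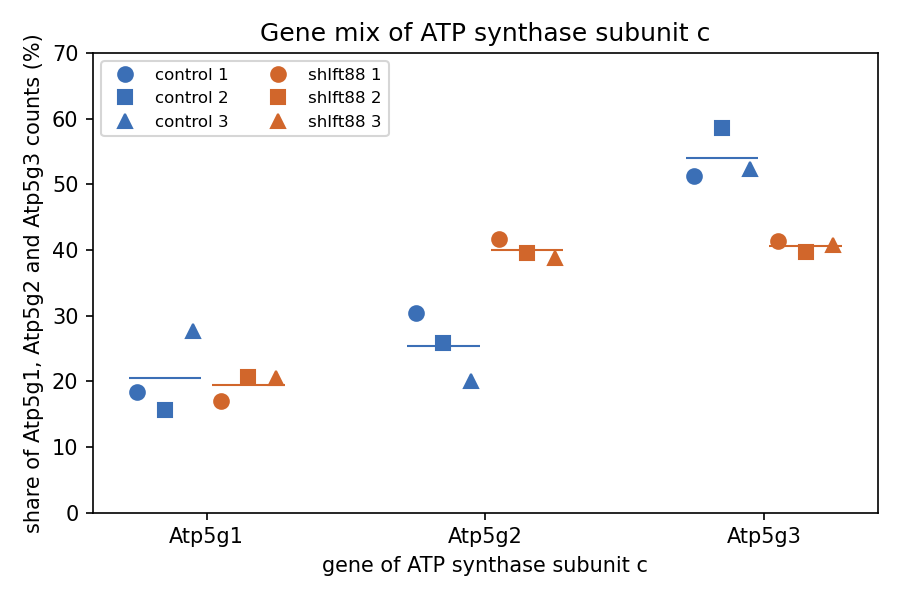
Share of the summed Atp5g1, Atp5g2 and Atp5g3 counts that each gene contributed, in percent, for each library, with lines at the group means. Blue symbols are controls and orange symbols shIft88. For Atp5g2 all shIft88 points lie above all controls, and for Atp5g3 all lie below.

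The mean share of Atp5g3 was 54.1% ± 3.94 in control libraries and 40.6% ± 0.827 in shIft88 (SD, n = 3 libraries each), a difference of -13.5 percentage points with an exact two-sided permutation p = 0.1. For Atp5g2 it was 25.4% ± 5.17 and 39.99% ± 1.51 (SD, n = 3), a difference of 14.5 points with the same exact p = 0.1. The smallest p this design allows is 0.1, and over the 11 shares computed the adjusted p was 0.367. As levels, Atp5g3 was at 175, 219 and 200.3 CPM in control libraries and 173, 95.6 and 119 CPM in shIft88 (log2 fold change -0.62, SE 0.29, unadjusted p = 0.066, edgeR adjusted p = 0.9995). Its groups nearly met, at control 1 and shIft88 1. Atp5g2 was at 104, 96.8 and 76.9 CPM and 175, 95.4 and 113 CPM (0.47, SE 0.29), its groups overlapping at control 1 and shIft88 2, and Atp5g1 at 62.5, 58.4 and 106 CPM and 71.6, 49.9 and 59.9 CPM (-0.32, SE 0.30).

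The promoters of these 3 genes are shown because the genes share a product and the shares of Atp5g2 and Atp5g3 did not overlap between the groups. Each runs from 250 bases before to 50 after the start of transcription, 5′ to 3′, from RefSeq on GRCm38.p6. Atp5g1 is at chr11:96075582-96075881, Atp5g2 at chr15:102670998-102671297 and Atp5g3 at chr2:73911277-73911576, all on the minus strand. Capitals mark an NRF1 string, spelled GCGCA, then any base, then GCGC, on either strand.
Atp5g1: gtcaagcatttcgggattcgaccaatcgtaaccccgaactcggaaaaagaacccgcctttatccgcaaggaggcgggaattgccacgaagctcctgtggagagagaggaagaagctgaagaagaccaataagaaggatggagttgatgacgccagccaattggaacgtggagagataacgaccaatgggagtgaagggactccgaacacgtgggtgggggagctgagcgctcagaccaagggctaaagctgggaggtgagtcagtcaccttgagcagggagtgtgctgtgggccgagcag
Atp5g2: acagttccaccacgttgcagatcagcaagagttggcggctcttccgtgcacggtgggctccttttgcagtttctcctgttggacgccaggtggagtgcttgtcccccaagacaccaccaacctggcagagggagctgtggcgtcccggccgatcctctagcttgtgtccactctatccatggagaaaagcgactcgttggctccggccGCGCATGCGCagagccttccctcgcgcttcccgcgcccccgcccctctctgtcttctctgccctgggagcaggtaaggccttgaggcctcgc
Atp5g3: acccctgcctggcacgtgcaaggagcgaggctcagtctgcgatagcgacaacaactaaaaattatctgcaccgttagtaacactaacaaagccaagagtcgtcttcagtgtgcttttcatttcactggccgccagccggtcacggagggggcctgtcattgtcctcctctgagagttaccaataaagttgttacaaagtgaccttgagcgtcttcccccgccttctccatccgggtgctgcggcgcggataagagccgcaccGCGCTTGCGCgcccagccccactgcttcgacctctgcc
The string was found in the windows of Atp5g2 and Atp5g3 and not in that of Atp5g1. Of the 82 nuclear genes, 70 had a promoter in the table. The NRF1 string was in 25.7% of these (18 genes) and in 5.19% of all 27025 genes with a promoter. The ETS string CCGGAAG was in 24.3% (17 genes) against 9.93%, and the YY1 string AAGATGGCG in 11.4% (8 genes) against 1.64%, each on either strand. None of these strings contains another. Of the 6 genes whose groups did not overlap, Ndufa6, Ndufa11 and Atp5g3 carried the NRF1 string, as did Atp5c1 in 1 of its 2 windows. Ndufs3 carried the ETS string and Ndufv3 none of the 3. These are matches of letters and not measurements of binding.

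Other mitochondrial genes, taken from lists of the same pathways, gave 0 calls in either direction. Of 7 subunits and electron carriers that the names above do not reach, 5 were above 0 and 2 below, among them the complex IV subunit Cox4i1 at 291, 211 and 281 CPM in control libraries and 298, 228 and 316 CPM in shIft88. Its paralog Cox4i2 was at 10.5, 0.39 and 4.52 CPM and 6.22, 4.84 and 4.50 CPM, and the ATP synthase inhibitor Atpif1 at 142, 139 and 58.8 CPM and 154, 111 and 153 CPM. Control 3 had the lowest Atpif1. Of 27 assembly factors, 23 were below 0 and 4 above, with a median log2 fold change of -0.21. The groups did not overlap for 2 of them, both lower in shIft88. Surf1, which helps to assemble complex IV, was 1 of these 2. It was at 30.8, 31.4 and 24.1 CPM in control libraries and 23.9, 22.6 and 19.5 CPM in shIft88 (-0.39, SE 0.24). Its lowest control lay just above its highest shIft88 library. Tmem70, which helps to assemble ATP synthase, had a log2 fold change of -0.57 (SE 0.34), and its groups overlapped. Of 16 regulators of mitochondrial biogenesis, 11 were below 0 and 5 above. The groups did not overlap for 1 of the 16, which was higher in shIft88. Yy1 had a log2 fold change of -0.42 (SE 0.25). The coactivator Ppargc1b was low in all libraries, at 1.21, 4 and 6.90 CPM in control libraries and 1.70, 2.05 and 0.999 CPM in shIft88 (-1.34, SE 0.70).

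Of 17 citrate cycle genes, which supply the chain with NADH and succinate, 11 were below 0 and 6 above. Dlst, a subunit of the 2-oxoglutarate dehydrogenase complex, was at 81.7, 86.8 and 92.3 CPM in control libraries and 66.6, 51.8 and 53.6 CPM in shIft88 (-0.60, SE 0.21, unadjusted p = 0.0252, edgeR adjusted p = 0.9995). All shIft88 libraries were below all controls. Dlst was the 1 gene of the 17 separated in that direction, and 2 were higher in every shIft88 library. Over all genes tested, 3.69% were separated lower and 4.7% higher. Mitochondrial ribosomal proteins translate the mitochondrial mRNAs. Of 78 rows named for them, 53 were below 0 and 25 above, with a median of -0.14. The names also took in the pseudogenes Mrpl23-ps1, Mrpl48-ps and Mrps36-ps1. The groups did not overlap for 2 higher and 2 lower rows, and 1 of the 2 higher was the pseudogene Mrpl48-ps. Mrps2 of the small subunit was at 28.4, 29.2 and 29.0 CPM and 21.4, 15.7 and 21.5 CPM (-0.56, SE 0.24), below every control, and Mrpl11 of the large subunit at 23.9, 24.1 and 20.4 CPM and 41.4, 25.3 and 33.9 CPM (0.56, SE 0.26), above every control.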

How the data were processed

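Libraries were grouped by their sample descriptions, 3 per group. Replicate numbers follow accession order and pair no samples. The authors used a stranded total RNA kit, per the labels' protocols. The submitters' processing notes name BWA and the mm9 build. The sources used here do not give the counting program, gene annotation or strand setting. The authors deposited 1 table per library, with whole-number read counts per gene and no normalization. Rows that name no gene were kept out of totals and tests. Reads with no feature made up 18.8 to 39.5% of all counts deposited for a library, those rows included.

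From these counts, CPM were computed with TMM scaling, and groups were compared with edgeR 4.0.16 in R 4.3.3 (quasi-likelihood test, robust, default filter on low counts, Benjamini-Hochberg adjustment over 16768 genes, threshold 0.05). DESeq2 1.42.0 and limma 3.58.1 (voom) were alternatives, beside other scalings, filters and libraries left out. The edgeR step was tested on simulated counts, drawn with a dispersion set below the one fitted to these libraries. That run does not show how the test performs at the spread of these data. Paralog shares were compared by exact two-sided permutation. Levels relative to the median library were computed after a small constant was added to each CPM. Lengths are medians of GENCODE M21 principal transcripts. Gene order and promoters are from RefSeq GRCm38.p6, matched by symbol (all 82 nuclear genes had a place in the gene order), with no coordinates converted from mm9.

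The genes described and the pathway and marker lists were chosen with earlier results of these data known. Named genes were every mitochondrial gene, every gene whose groups did not overlap, in each complex the 2 of smallest p and the 2 highest per kilobase, paralog pairs, genes next to the 50-count limit and, from each pathway list, the 2 of smallest p. Atp5e, Atp5k, Cox6c, Sdhc, the Ndufaf genes and the mitochondrial ribosomal protein pseudogenes were added after their values were seen. A gene that this rule also names is not reported here.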

Additional observations from a re-analysis of the deposited data

How the results depend on the processing

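Of the 95 genes, 0 were called under each of the 21 other settings. Scaling by library totals alone moved the median log2 fold change to -0.41 for all 95 genes, -0.41 for the nuclear and -0.38 for the mitochondrial ones, with 4 genes above 0 and 91 below, but it also moved the median of all genes tested to -0.33. Leaving out 1 library at a time gave medians from -0.20 (without control 2) to 0.05 (without shIft88 2) for all genes, from -0.20 to 0.04 for nuclear genes, and from -0.14 (without shIft88 1) to 0.25 (without control 3) for mitochondrial genes. Genes whose groups did not overlap numbered 7 to 19 with 1 library left out, against 6 with all. The 19 were without control 2 and made up 20% of the 95, where 18.8% of all genes tested were separated; without the other libraries the shares were 7.37 to 16.8% against 15.2 to 21.1% of all genes. They numbered 44 (46.3%, against 65.4% of all genes) within the libraries rich in olfactory receptor rows and 52 (54.7%, against 62.0%) within the others, where 1 library stood alone on 1 side. A term for that split gave a median of 0.03. Without a filter on low counts it was -0.11, against 0.12 over all genes. Leaving out the satellite-like rows before scaling was chosen after seeing the data and gave -0.11, and then 0 of the 95 genes had an unadjusted p under 0.05. Of 56 named genes, each with a value in 17 or 18 of these settings, 23 kept the sign of the fold change in all that gave a value, 33 changed it in at least 1, and 0 were called in any. No paired analysis was possible because the replicate numbers are in accession order only. With 3 libraries a group, the 95% interval left room for a doubling or a halving in the genes outside the 72 for which it excluded both.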
